A study of Mus musculus with 5 samples.

Results

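N3 is 1 of the 4 neutrophil subclusters that the authors named in cells of foreign body granulomas of mice. Its members are the cells that carry the name N3 in the authors' deposited annotation and come from a granuloma library, which gave 177 of 2274 granuloma neutrophils. The other neutrophils were 1250 N1, 830 N2 and 17 BP cells. The 4 granuloma libraries held 32152 cells and the whole series 41191. A foreign body granuloma is a nodule of macrophages and connective tissue around material that the body cannot remove, here silk or a sponge. The labels give times of 4 and 2 weeks, with 1 library each of silk at 4 weeks, silk at 2 weeks, sponge at 4 weeks and sponge at 2 weeks. The sources used here do not state strain, age, genotype or how many animals a library pooled. The other library, of macrophages elicited with thioglycollate, held 1 N3 cell, which was not used.

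Neutrophils are short-lived granulocytes that reach a site of injury first and carry ready-made granules of antimicrobial proteins. They are known by S100a8 and S100a9, which encode the subunits of calprotectin, and by Csf3r, the receptor for granulocyte colony-stimulating factor. Macrophages, the main cells of a granuloma, are known by the complement genes C1qa, C1qb and C1qc, the lipid carrier gene Apoe and Csf1r, the receptor for macrophage colony-stimulating factor. Macrophages also engulf dying neutrophils.

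The label was checked against its markers in both 2-week libraries, the ones with at least 20 N3 cells. Levels are given as CPM, the UMIs (transcript molecules) of a gene per 1000000 UMIs summed over the cells of a group. S100a8 was at 7550 CPM in N3, 46000 in N1, 41300 in N2 and 107 in Mo-Mac cells of silk, Mo-Mac being the authors' class of monocytes, macrophages and dendritic cells. In sponge it was at 14900 CPM in N3, 93200 in N1, 53600 in N2 and 105 in Mo-Mac cells. Csf3r had 274 CPM in N3, 1600 in N1, 879 in N2 and 25.9 in Mo-Mac cells of silk, and 378, 1360, 1070 and 43.1 CPM in the same groups of sponge. All 3 markers therefore stood in N3 far above the Mo-Mac level and below both other neutrophil subclusters, S100a9 with 8160 CPM in silk N3 cells and 17900 CPM in sponge N3 cells. At least 1 UMI of S100a8 or S100a9 was present in 58 of 59 N3 cells of silk and in 106 of 106 of sponge. At 4 weeks S100a8 was at 3660 CPM (12 UMIs) in the 1 silk N3 cell and at 7920 CPM (240 UMIs) in the 11 sponge N3 cells. Macrophage genes were among those that led N3 over N1 and N2, as described below, so the cells are called by their subcluster name here. On the build GRCm38 (GENCODE M21), S100a8 lies on chromosome 3 at 90668978 to 90670035, S100a9 on chromosome 3 at 90692632 to 90695721 and Csf3r on chromosome 4 at 126024550 to 126044440.

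N3 cells were found mostly at 2 weeks. They numbered 1 in silk at 4 weeks, 59 in silk at 2 weeks, 11 in sponge at 4 weeks and 106 in sponge at 2 weeks. In the same order they made up 1.35% (exact 95% interval 0.0342 to 7.3), 7.17% (5.5 to 9.15), 3.33% (1.68 to 5.89) and 10.1% (8.36 to 12.1) of neutrophils. Between materials at 2 weeks, silk minus sponge was -2.96 percentage points (95% Newcombe interval -5.48 to -0.365). At 4 weeks it was -1.98 points (-4.75 to 4.11). Without the cells of highest pair score, described below, the shares were 1.35% in silk at 4 weeks, 1.3% in silk at 2 weeks, 0.935% in sponge at 4 weeks and 1.16% in sponge at 2 weeks. All 4 shares then lay between 0.935% and 1.35%. The number of cells left out was set by library size, and was 1.49%, 8.18%, 6.16% and 9.88% of all cells in the same order. The remaining 2-week shares rest on 10 N3 cells in silk and 11 in sponge, and the silk share at 4 weeks on 1 cell. No intervals were computed for them, so their order cannot be read. With all cells and within sponge, 4 weeks minus 2 weeks was -6.79 points (-9.25 to -3.75), and within silk -5.82 points (-8.08 to 0.301). Each group had 1 library, so no test across libraries could be run, and all intervals cover counting error only. The libraries held 1873, 10231, 7701 and 12347 cells in that order, so the N3 share had the same order as the number of cells in the library, and the part of this number in the share was not tested.

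**Figure D1:**
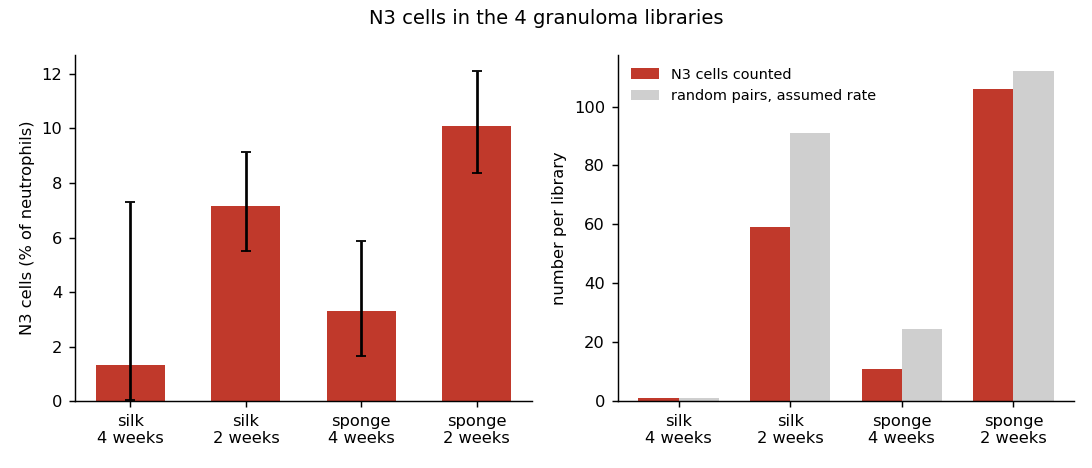
N3 cells in each granuloma library. Left, N3 cells as a percent of neutrophils with exact 95% intervals, highest in sponge at 2 weeks (10.1%). Right, the N3 cells counted beside the number of random pairs of an N1 or N2 cell with a Mo-Mac cell at an assumed pair rate of 0.8% per 1000 cells.

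At 2 weeks N3 cells held about 3 to 4 times the UMIs of other neutrophils. The median was 4863 UMIs in N3, 1221 in N1, 1434 in N2 and 4350 in Mo-Mac cells of silk at 2 weeks. In sponge at 2 weeks it was 5831 in N3, 1762.5 in N1, 1843.5 in N2 and 4787 in Mo-Mac cells. N3 thus had 3.98 times the median of N1, 3.39 times that of N2 and 1.12 times that of Mo-Mac cells in silk, and 3.31, 3.16 and 1.22 times these in sponge. In sponge at 4 weeks the gap was smaller, with medians of 2200 UMIs in N3, 1101 in N1 and 1283.5 in N2. The sum of the N1 and Mo-Mac medians at 2 weeks was 5571 UMIs in silk and 6549.5 UMIs in sponge. N3 cells showed a median of 1871 detected genes in silk and 1997 in sponge, against 533 and 599 in N1. Their mitochondrial share, a common sign of cell damage when high, had a median of 3.28% in N3, 1.3% in N1 and 3.82% in Mo-Mac cells of silk, and 2.56%, 0.651% and 3.21% in those of sponge.

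**Figure D2:**
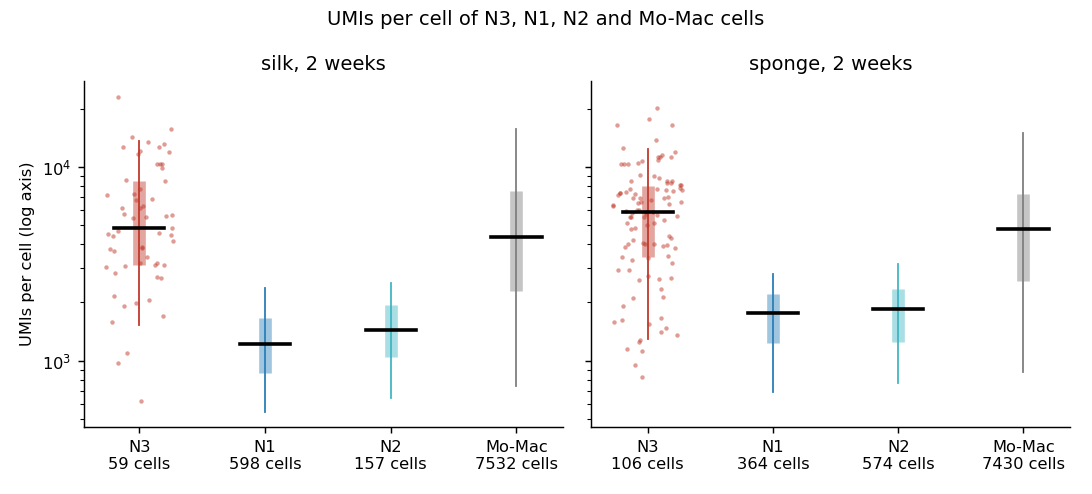
UMIs per cell on a log axis in both 2-week libraries, for N3, N1, N2 and Mo-Mac cells. Black bars are medians, boxes run between the quartiles and lines between the 5th and 95th percentiles, and points are single N3 cells. The N3 median (4863 in silk, 5831 in sponge) lay near that of Mo-Mac cells and above those of N1 and N2.

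Most N3 cells also stood among the cells that look most like a pair of cells. Each cell was scored by the share of simulated pairs among its 30 nearest neighbours, and the highest-scoring cells of a library, 0.8% per 1000 cells, were marked. This marked 49 of 59 N3 cells (83.1%), 3 of 598 N1 cells (0.502%), 0 of 157 N2 cells and 7.81% of Mo-Mac cells in silk at 2 weeks. In sponge at 2 weeks it marked 95 of 106 N3 cells (89.6%), 0 of 364 N1 cells, 2 of 574 N2 cells (0.348%) and 9.08% of Mo-Mac cells. At 4 weeks it marked 0 of 1 N3 cell in silk and 8 of 11 in sponge. At the same assumed rate, random pairs of an N1 or N2 cell with a Mo-Mac cell would number 1.2 in silk at 4 weeks, 91 in silk at 2 weeks, 24.7 in sponge at 4 weeks and 112 in sponge at 2 weeks, beside 1, 59, 11 and 106 N3 cells counted. That rate is an assumption and was not measured in these libraries. Whether an N3 barcode held 1 cell or a pair was not tested.

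At 2 weeks macrophage genes were higher in N3 than in N1 and N2. The 18 genes of a macrophage-defining list took 0.908% of N3 UMIs in silk at 2 weeks (exact 95% interval 0.878 to 0.939), against 0.178% in N1, 0.651% in N2 and 1.51% in Mo-Mac cells. In sponge at 2 weeks they took 1.56% in N3 (1.53 to 1.59), 0.247% in N1, 0.432% in N2 and 2.29% in Mo-Mac cells. At 4 weeks the 1 silk N3 cell had 0.335% (0.168 to 0.599) and the 11 sponge N3 cells 0.759% (0.665 to 0.864). At 4 weeks the share was 0.172% in N1, 0.699% in N2 and 1.68% in Mo-Mac cells of silk, and 0.303%, 0.621% and 1.8% in those of sponge. N3 was thus below N2 in silk, and the median single cell of sponge had 0.383% in N3 and 0.618% in N2. None of the 18 genes was at 0 in N3 at 2 weeks. Gene by gene, the N3 level was a median of 64.8% of the Mo-Mac level in silk and lowest for Gpnmb, a glycoprotein gene of lipid-laden macrophages, at 21.7%. In sponge the median was 69.3%, from 34.6% for Gpnmb to 96.9% for Mertk, a receptor for the uptake of dead cells. In N1 the median was 5.3% in silk and 5.04% in sponge, and in N2 3.28% and 5.01%. Ctsd, Cd63 and Cd68, which encode lysosomal proteins, are on the list but were also high in N2, where Cd68 reached 231% of the Mo-Mac level in silk.

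**Figure D3:**
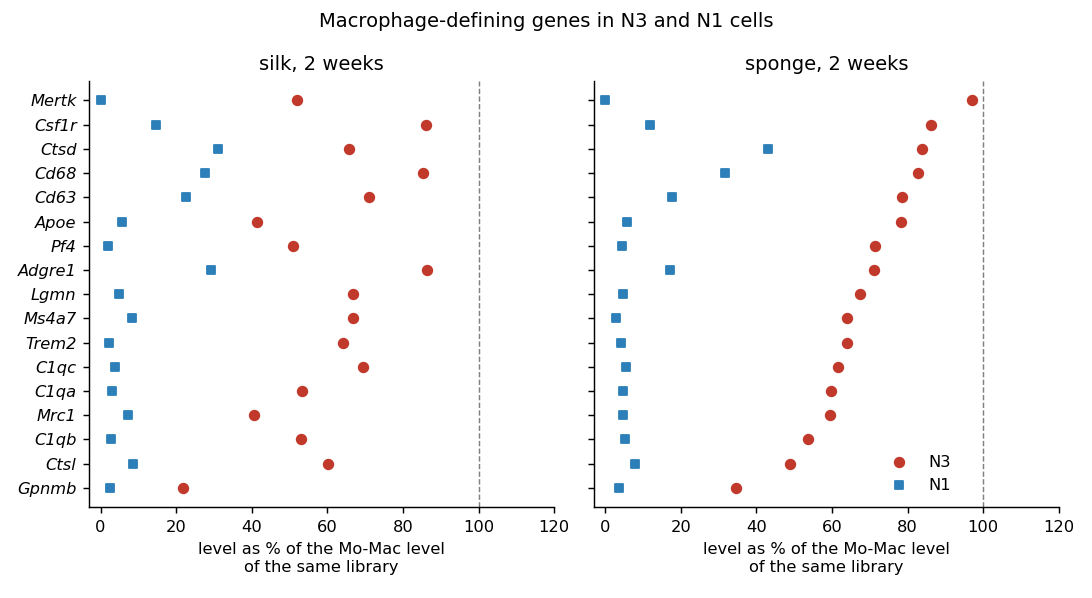
Level of 17 of the 18 macrophage-defining genes in N3 (circles) and N1 (squares) as a percent of its level in Mo-Mac cells of the same 2-week library, with 100% dashed. Over all 18 genes N3 lay at a median of 64.8% in silk and 69.3% in sponge, N1 at 5.3% and 5.04%.

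Genes of fibroblasts were taken as a rough view of free RNA, which any droplet can take up. A list of 10 fibroblast genes was at a median of 0.257% of the fibroblast level in N3 and 0.689% in N1 of silk, and at 0.623% in N3 and 1.24% in N1 of sponge. On the CPM scale, the medians of fibroblast genes were lower in N3 than in N1, while those of macrophage-defining genes were higher. N3 cells held more UMIs, and a fixed amount of free RNA is a smaller share of a deeper cell. The contrast therefore cannot tell how much free RNA a droplet held. At least 1 UMI of the fibroblast gene Col1a1 was found in 23.7% of N3 and 11.4% of N1 cells of silk. In sponge it was found in 53.8% and 36%, and the part of free RNA was not tested. Gsn, an actin-severing protein that myeloid cells also make, was the highest of the fibroblast list in N3, at 34.5% of the fibroblast level in silk and 17% in sponge. The neutrophil core list, 17 genes typical of mature neutrophils, took 2.24% of UMIs in N3, 13.9% in N1, 10.1% in N2 and 0.131% in Mo-Mac cells of silk. In sponge it took 4.18% in N3, 24.3% in N1, 13.7% in N2 and 0.167% in Mo-Mac cells. Over the 16 of these genes with enough UMIs, N3 stood at a median of 15.7% of the N1 level in silk and 21.2% in sponge.

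Both kinds of transcript met in the same barcodes. At least 5 UMIs of S100a8 and S100a9 together with at least 1 C1q UMI were found in 28 of 59 N3 cells of silk (47.5%, exact 95% interval 34.3 to 60.9), 5.85% of N1, 7.01% of N2 and 1.86% of Mo-Mac cells. In sponge they were found in 69 of 106 N3 cells (65.1%, 55.2 to 74.1), 25.5% of N1, 27.5% of N2 and 1.71% of Mo-Mac cells. After each cell was thinned to 605 UMIs, the shares were 22% in N3, 3.14% in N1, 1.99% in N2 and 0% in Mo-Mac cells of silk (0 of 7324 cells, with an exact upper limit of 0.0504%). In sponge they were 37.7% in N3, 11.8% in N1, 11.9% in N2 and 0.137% in Mo-Mac cells. Thinning left out no N3 cell, 56 N1, 6 N2 and 208 Mo-Mac cells in silk, and 7 N1, 10 N2 and 116 Mo-Mac cells in sponge. At equal depth, N3 still had the highest share in both libraries.

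Single cells showed a broad range. The neutrophil core share of a cell ran from 0.295% through a median of 2.19% to 9.04% over the N3 cells of silk, and from 0.49% through 3.73% to 15.9% over those of sponge. The macrophage-defining share ran from 0.0947% through 0.701% to 3.81% in silk and from 0.0973% through 0.926% to 5.08% in sponge. In silk 58 of 59 and in sponge 104 of 106 N3 cells lay above the 95th percentile of Mo-Mac cells for the neutrophil core share. In silk 44 of 59 and in sponge 28 of 106 lay below the 5th percentile of N1 and N2 cells together. Most N3 cells therefore lay between both classes on this measure in silk, while in sponge most lay above that 5th percentile. Even so, the third quartile of sponge N3 cells (6.24%) was below the first quartiles of N2 (6.46%) and N1 (16.3%).

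**Figure D4:**
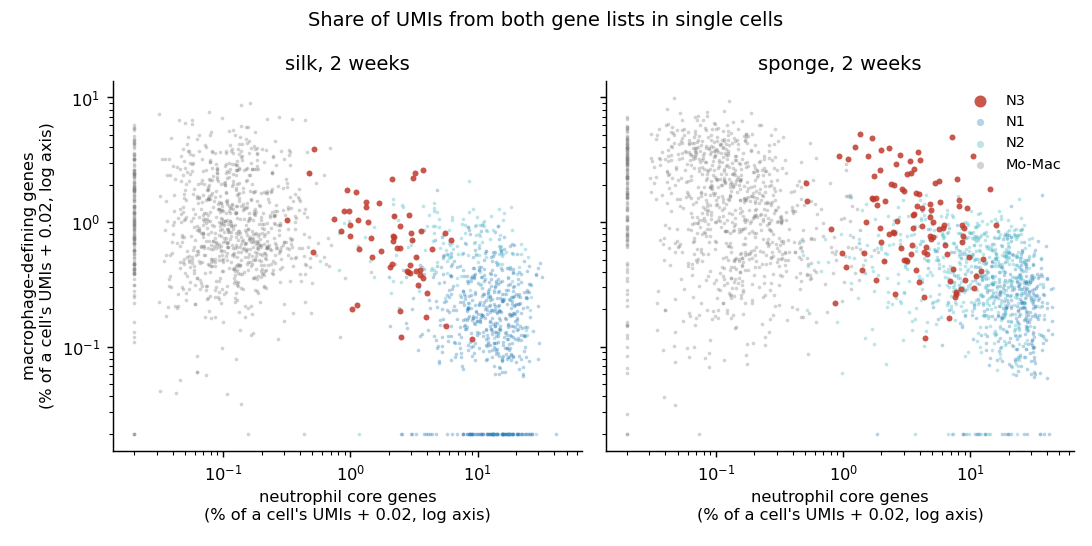
Each point is a cell of a 2-week library, with the percent of its UMIs from neutrophil core genes (x) and from macrophage-defining genes (y), both on log axes with 0.02 added. In silk most N3 cells (red) lie between N1 and N2 cells on the right and Mo-Mac cells on the left. There 44 of 59 were below the 5th percentile of N1 and N2 together on x, and in sponge 28 of 106. In sponge the third quartile of N3 (6.24%) was below the first quartiles of N2 (6.46%) and N1 (16.3%). Of Mo-Mac cells 1000 drawn at random are shown.

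Across all genes past the limits, N3 levels lay within the range of N1, N2 and Mo-Mac cells for 2824 of 3519 (80.3%) in silk and 3012 of 3459 (87.1%) in sponge. Of 1295 genes at least 2-fold higher in Mo-Mac cells than in N1 and N2 of silk, 1068 (82.5%) were in N3 within that range. In sponge this held for 1320 of 1424 (92.7%). Of the genes at least 2-fold lower in Mo-Mac cells, 430 of 444 (96.8%) lay within the range in silk and 384 of 388 (99%) in sponge. Few genes were at least 2-fold above all 3 groups. In silk these were Cd209a, a lectin gene of monocyte-derived dendritic cells, and Igfbp6, an insulin-like growth factor binding protein gene, each with over 40% of its N3 UMIs in 1 cell (40.6% and 46.3%). In sponge they were the platelet chemokine gene Ppbp, with 56.4% of its UMIs in 1 cell, and Fscn1, Ccl22 and the predicted gene Gm15056, which all came from 1 cell each. The genes in the last 3 sentences were named after their values were seen, and 1 gene, Notch1 in silk, was at least 2-fold below all 3 groups.

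A weighted sum of the mean profiles of N1, N2 and Mo-Mac cells was fitted to the N3 profile of the same library. The best non-negative weights were 78.5% for Mo-Mac and 18.1% for N1 and N2 together in silk, and 71% and 25.9% in sponge. The sum accounted for 95.9% of the weighted squared level of N3 in silk and 96.5% in sponge, against 88.7% and 84.7% for Mo-Mac alone and 39.4% and 49.5% for N1 and N2 alone. An N1 or N2 cell had a mean of 1363 UMIs and a Mo-Mac cell 5796 in silk, so the neutrophil mean was 19% of both means together. In sponge the means were 1833 and 5948 UMIs and the neutrophil's part 23.6%. Within the neutrophil weight, N2 took 17.1% in silk and 65.3% in sponge, and N2 made up 20.8% and 61.2% of the N1 and N2 cells of these libraries. These values were set side by side after the data were seen, and no other group was fitted as a reference. Whether N3 barcodes hold pairs was not tested by them. With the authors' macrophage subclusters in place of the whole class, C7 had the largest weight in silk (56%) and C4 in sponge (19.3%). C7 was 59.2% of Mo-Mac cells in silk and C4 34.2% in sponge. The weights and these shares have unlike bases, since the weights are of a fit that also holds N1 and N2.

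N3 was next compared with N1 and N2 in each 2-week library. A gene was called when all 4 contrasts showed a 2-fold or larger change in 1 direction on the scale log2((CPM + 10)/(CPM + 10)), and each higher sum held no fewer than 30 UMIs and reached 50 CPM. As the subclusters were made from the same cells, the counts are a description. Of 2076 genes with enough UMIs, 611 (29.4%) were higher and 54 (2.6%) lower in N3. N3 was shifted upward as a whole, with a median log2 ratio over all measured genes of 0.621 over N1 and 0.792 over N2 in silk and 0.847 and 0.639 in sponge. With median-ratio scaling, which centres the genes, 351 were higher and 255 lower.

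The genes with the largest rise, ranked by the smallest of the 4 contrasts, included Arg1, Fn1, Cd74, S100a4, Crip1, Msr1, Cd36, Cxcl16, Lpl, Sdc3 and Anxa5. Arg1, the arginase of alternatively activated macrophages, was at 400 CPM in N3, 5.06 in N1, 4.21 in N2 and 317 in Mo-Mac cells of silk, and at 474 CPM in N3, 9.35 in N1, 7.42 in N2 and 544 in Mo-Mac cells of sponge. Its log2 ratio of N3 over N1 was 6.14 in silk (95% interval 4.92 to 8.2) and 5.55 in sponge (4.53 to 7.12). Such ratios with intervals have 0.5 counts added to each sum, and list medians are on the scale with 10 CPM added. Fn1, which encodes fibronectin, was at 8780 CPM in N3, 150 in N1, 105 in N2 and 9840 in Mo-Mac cells of silk, and at 2630, 98.2, 122 and 2660 CPM in these groups of sponge. Cd74, the invariant chain of MHC class II, was at 1970 CPM in N3 against 83.4 in N1 and 84.1 in N2 of silk, and at 2080 CPM against 81.1 and 95.6 in sponge. In all 3 genes the N3 level was near that of Mo-Mac cells, with log2 ratios of N3 over Mo-Mac between -0.74 (Cd74 in sponge) and 0.34 (Arg1 in silk).

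Over all genes 29.4% were called higher, which is the background of the counts by list. By list, 13 of 18 macrophage-defining genes were higher in N3 than in N1 and N2 and none lower. C1qa, on chromosome 4 at 136895917 to 136898803, was at 424 CPM in N3, 24 in N1, 25.2 in N2 and 796 in Mo-Mac cells of silk, and at 977, 76.4, 65.9 and 1640 CPM in sponge. Apoe was at 1110 CPM in N3, 150 in N1 and 101 in N2 of silk, and at 3700, 277 and 238 CPM in sponge. Of 7 MHC class II genes 6 were higher and none lower, and of 18 genes of foreign body macrophages 9 were higher and none lower, among them Cd36, a scavenger receptor, and Lpl, a lipase. Of 21 genes of oxidative phosphorylation 12 were higher and none lower. Their median log2 ratio of N3 over N1 was 1.32 in silk and 1.4 in sponge, beside 0.621 and 0.847 over all genes. Atp5a1, a subunit of ATP synthase, was at 416 CPM in N3, 54.4 in N1 and 33.6 in N2 of silk. Of 12 monocyte genes 5 were higher, among them the chemokine receptor gene Ccr2, and 1 was lower. Lyz2, the lysozyme of myeloid cells, was at 11700 CPM in N3, 1040 in N1 and 425 in N2 of silk, and at 9540, 2230 and 1120 CPM in sponge.

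Neutrophil genes were among those lower in N3. The 12 furthest down by the same ranking were Stfa2l1, H2-Q10, Cstdc4, S100a8, S100a9, Slfn1, Csf3r, Sh2d3c, Srgn, Chil1, Clec4d and Slc7a11. Stfa2l1, a stefin protease inhibitor gene, was at 102 CPM in N3, 880 in N1, 698 in N2 and 0.344 in Mo-Mac cells of silk, and at 251, 1290, 1370 and 0.792 CPM in sponge. Beside 2.6% of all genes called lower, 7 of 17 neutrophil core genes were lower and none higher. The others include genes for which N1 and N2 differ, such as the chemokine receptor gene Cxcr2, at 77.8 CPM in N3, 513 in N1 and 54.7 in N2 of silk. Ly6g, the surface marker by which mouse neutrophils are sorted, had UMIs in 2 N3 cells of silk and 9 of sponge. It was at 5.37 CPM in N3, 31.6 in N1 and 16.8 in N2 of silk, and at 15.1, 129 and 40.8 CPM in sponge. In CPM the neutrophil core list had a median log2 ratio of N3 over N1 of -2.61 in silk and -2.2 in sponge. Over N2 it was -0.273 in silk, where 7 of 16 genes were at least 2-fold lower, and -1.34 in sponge. With the mean over cells of each cell's CPM the median over N2 in silk turned to 0.0686. With median-ratio scaling it was -3.67 over N1 and -0.915 over N2 in silk, and -3.14 and -2.26 in sponge.

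Neutrophils form their granules in the bone marrow, and genes of the granule classes were looked at in N3. The primary granule genes Mpo, Elane, Ctsg, Prtn3, Ms4a3 and Prss57 had 0 UMIs in N3 of both libraries, which allows up to 8.05 CPM each in silk and 4.53 CPM in sponge. None of them passed the limits, so they show no difference from N1 and N2. Of 14 genes of secondary granules and immature neutrophils, 5 passed the limits, 2 were higher (Chil3 and Lyz2) and 1 lower (Lcn2). Over all genes 29.4% were higher and 2.6% lower. The summed level of these 14 genes in silk was 12680 CPM in N3, 2666 in N1 and 1131 in N2. In N3 most of it was Lyz2, at 11700 CPM, against 1040 in N1 and 425 in N2. The list's median log2 ratio in silk was -0.341 over N1 and 1.29 over N2, beside 0.621 and 0.792 over all genes. In sponge it was -1.57 over N1 and -0.318 over N2, beside 0.847 and 0.639. Lcn2 was at 164 CPM against 760 in N1 and 387 in N2 of silk, and at 643 CPM against 2050 and 2940 in sponge. Chil3 was higher, at 115 CPM against 0 UMIs in N1 and N2 of silk, and is known from macrophages as well, with 94.4 CPM in Mo-Mac cells. Of 18 inflammatory cytokine genes, none was higher and 1 was lower, Acod1, the enzyme that makes itaconate. It was at 896 CPM in N3, 4470 in N1 and 4460 in N2 of silk, and at 1510, 3430 and 5380 CPM in sponge. Lists of mast cells and basophils, eosinophils, dendritic cells, endothelial cells, lymphocytes and red cells had no gene called in either direction, and no member of them passed the limits on UMIs and CPM in all 4 contrasts.

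The N3 cells without a high pair score were 10 in silk and 11 in sponge, under the 20 cells set for a comparison. Their median was 2027.5 UMIs in silk and 2610 in sponge. Their macrophage-defining share was 0.71% in silk and 0.756% in sponge, and their neutrophil core share 2.44% and 5.42%. The macrophage-defining share was 0.178% in N1 and 0.651% in N2 of silk, and 0.247% and 0.432% in sponge. Fn1 was at 9090 CPM in those of silk and 1280 CPM in those of sponge, and Cd74 at 1420 and 555 CPM. These values are higher for Fn1 and Cd74 than the N1 and N2 values given above. N3 cells without a C1q UMI numbered 30 in silk and 35 in sponge, and their remaining macrophage-defining genes took 0.552% and 0.708% of UMIs. In silk this lay below the 0.651% that the full list, with its C1q genes, took in N2. Ctsd, Cd63 and Cd68 were at 3310, 1630 and 1030 CPM in N2 of silk. Without the C1q genes and cells with a C1q UMI, the list's median log2 ratio of N3 over N2 was 2.35 in silk and 1.52 in sponge.

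The last comparison was silk over sponge among N3 cells at 2 weeks. Of 2858 genes with enough UMIs in the higher sum, 98 (3.43%) were called higher in silk and 162 (5.67%) lower, by a 2-fold change or more. With median-ratio scaling 62 were higher and 219 lower. Silk had 59 cells and 372665 UMIs and sponge 106 cells and 662150 UMIs. The same rule called 126 (5.98%) higher and 30 (1.42%) lower in N1, 149 (7.83%) and 205 (10.8%) in N2 and 56 (1.75%) and 148 (4.63%) in Mo-Mac cells. The difference between silk and sponge was not tested between subclusters. Pairs at 4 weeks, and 4 weeks against 2 weeks, had fewer than 20 N3 cells on 1 side and were not compared by gene.

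Genes higher in silk were led by Mmp12 and Cd209a, with Lyz1, AA467197, Mt3, Itgax, Igfbp6, Matk, Dapk1, Met, Sgk1 and Fn1 after them. Cd209a and Mt3 had UMIs in 4 N3 cells each in silk. Without cells with a C1q UMI, Lyz1 had a log2 ratio of -0.36, and after thinning Matk had -1.36 and Igfbp6 -1.21. Mmp12, the macrophage elastase, on chromosome 9 at 7344381 to 7369499, was at 1110 CPM in silk N3 cells and 103 CPM in sponge N3 cells, a log2 ratio of 3.43 (95% interval 3.06 to 3.83). In silk 42% of its UMIs came from 1 cell, and the log2 ratio was 0.78 in N1, 1.22 in N2 and 1.49 in Mo-Mac cells. Fn1 was at 8780 CPM in silk and 2630 CPM in sponge, a log2 ratio of 1.74 (1.66 to 1.83), against 0.61 in N1, -0.19 in N2 and 1.89 in Mo-Mac cells. Itgax, the integrin CD11c, was at 266 CPM in silk and 51.3 CPM in sponge, a log2 ratio of 2.36 (1.8 to 2.98). Of 18 genes of foreign body macrophages 7 were higher, among them the fractalkine receptor gene Cx3cr1 and Cd36, beside 3.43% of all genes. Only 1 was lower, Fabp5, a fatty acid binding protein gene. The list's median log2 ratio was 0.752 in N3, -0.000455 in N1, 0.81 in N2 and 0.725 in Mo-Mac cells. Those medians cover 18, 14, 13 and 18 genes. Of 15 genes of oxidative stress 3 were higher, beside the same 3.43%, and none lower. Prdx1, a peroxiredoxin, was at 3720 CPM in silk and 1530 CPM in sponge.

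Genes lower in silk were led by chemokine genes. Ccl8, on chromosome 11 at 82115185 to 82116799, had 0 UMIs in silk N3 cells and 483 UMIs (729 CPM) in sponge N3 cells, so it was at least 90.6-fold lower, with the floor set at 3 counts in the silk sum. Ccl7 had 2 UMIs (5.37 CPM) in silk and 426 UMIs (643 CPM) in sponge, a log2 ratio of -6.59 (-9.96 to -5.04). Ccl2 had 4 UMIs (10.7 CPM) in silk and 403 UMIs (609 CPM) in sponge, a log2 ratio of -5.66 (-7.71 to -4.46). In Mo-Mac cells the log2 ratio was -6.75 for Ccl8, -4.47 for Ccl7 and -3.52 for Ccl2. It was -5.94 in N1 and -3.70 in N2 for Ccl8, -2.62 and -2.98 for Ccl7, and -1.98 and -3.69 for Ccl2, so these genes were lower in silk in the other neutrophils too. Of 17 genes of a chemokine list, which does not hold Ccl8, 7 were lower and 2 higher (Ccl6 and Cxcl3). Over all genes 5.67% were called lower and 3.43% higher. Ccl2, Ccl5, Ccl7, Ccl22 and Cxcl10, with 0 to 4 UMIs in silk, passed the limits through sponge alone. The list's median log2 ratio was -1.05, beside 0.102 over all genes, and genes could enter it through sponge alone as well. Ccl22, Ccr7 and Fscn1, known from migrating dendritic cells, were at 0 UMIs in silk, and all their UMIs in sponge N3 cells came from 1 cell each. Fcgr1, the high-affinity IgG receptor, had 5.37 CPM in silk and 187 CPM in sponge, a log2 ratio of -4.81 (-8.19 to -3.24).

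Genes of the type I interferon response were lower in silk. Of 20 genes listed, 11 were called lower and none higher, beside 5.67% of all genes called lower. Genes with few UMIs in silk, such as Gbp2 (4 UMIs in silk and 151 in sponge), passed the limits through sponge alone, so the count describes only the genes that could be measured. A lower limit of 10 UMIs over both libraries, which genes can also pass through sponge alone, was used for the list's median log2 ratio. It was -1.77 in N3 (14 genes), -0.193 in N1 (12), -1.13 in N2 (18) and -1.79 in Mo-Mac cells (19). Over all genes at that limit the median was 0.102, 0.253, 0.018 and 0.01 in the same order. The genes measured differ between the groups, so the groups cannot be ranked by these medians. Isg15, a ubiquitin-like protein, was at 40.3 CPM in silk N3 cells and 302 CPM in sponge N3 cells, a log2 ratio of -2.86 (-3.77 to -2.15), against 0.03 in N1, -1.42 in N2 and -3.06 in Mo-Mac cells. Rsad2, the antiviral protein viperin, was at 29.5 CPM in silk and 201 CPM in sponge, a log2 ratio of -2.71 (-3.8 to -1.88), against -0.23 in N1, -0.14 in N2 and -2.09 in Mo-Mac cells. Cxcl10, a chemokine for activated T cells, had 0 UMIs in silk and 73 UMIs in sponge, so it was at least 13.7-fold lower. Ifitm3, a membrane protein that hinders virus entry and the gene of the list with most UMIs in N3, was at 1010 CPM in silk and 2170 CPM in sponge. With 10 CPM added its log2 ratio was -1.10 in N3, -0.98 in N1, -2.33 in N2 and -1.79 in Mo-Mac cells. The order of the groups thus differed from gene to gene.

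The promoters of Isg15, Rsad2 and Cxcl10 are shown because these genes were lower together. Each window runs from 250 bases before to 50 bases after the gene's start (RefSeq, build GRCm38.p6). Capitals mark matches to GAAA, any 2 bases and GAAA again, searched on both strands, the core of the element that interferon-activated factors bind, with overlapping matches joined. Isg15 lies at chr4:156200769-156201068 (minus strand) with 3 matches, Rsad2 at chr12:26456403-26456702 (minus strand) with 1 and Cxcl10 at chr5:92348840-92349139 (minus strand) with 1.
Isg15: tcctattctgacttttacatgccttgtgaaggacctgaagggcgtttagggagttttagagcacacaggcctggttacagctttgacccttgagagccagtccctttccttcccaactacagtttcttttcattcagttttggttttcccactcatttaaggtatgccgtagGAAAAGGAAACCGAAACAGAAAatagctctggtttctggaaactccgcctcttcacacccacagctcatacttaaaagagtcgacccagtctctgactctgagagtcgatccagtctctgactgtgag
Rsad2: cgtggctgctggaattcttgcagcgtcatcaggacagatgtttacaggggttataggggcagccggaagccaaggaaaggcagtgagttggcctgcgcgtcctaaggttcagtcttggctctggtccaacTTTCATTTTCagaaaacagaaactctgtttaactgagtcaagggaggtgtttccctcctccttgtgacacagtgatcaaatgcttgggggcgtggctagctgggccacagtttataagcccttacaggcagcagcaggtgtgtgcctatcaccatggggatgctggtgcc
Cxcl10: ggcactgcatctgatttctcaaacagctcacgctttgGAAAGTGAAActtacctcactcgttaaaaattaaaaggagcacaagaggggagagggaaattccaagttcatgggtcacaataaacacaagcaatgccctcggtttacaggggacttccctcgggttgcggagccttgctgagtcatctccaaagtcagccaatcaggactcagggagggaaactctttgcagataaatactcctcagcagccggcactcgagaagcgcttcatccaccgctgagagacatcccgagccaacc
Of 17 interferon list genes with a window 9 held a match (52.9%), beside 1079 of 27025 genes with a window (3.99%). A match describes the sequence and was not tested as a site.

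Some neutrophil genes were also lower in silk N3 cells. S100a9 had a log2 ratio of -1.13 (-1.19 to -1.08) in N3, -0.96 in N1, -0.62 in N2 and -0.96 in Mo-Mac cells. Retnlg, a resistin-like gene of neutrophils, was at 394 CPM in silk and 1140 CPM in sponge N3 cells, a log2 ratio of -1.52 (-1.79 to -1.27), against -1.57 in N1 and -1.56 in N2. Over all genes 5.67% were called lower, which is the background of the list counts here. Of 17 neutrophil core genes 5 were lower and none higher. Their median log2 ratio was -0.581 in N3, -0.133 in N1, -0.915 in N2 and -0.409 in Mo-Mac cells. Of the 18 macrophage-defining genes 7 were lower and none higher, with a median log2 ratio of -0.581. This median was 0.0142 without cells with a C1q UMI and without the C1q genes. With all cells and genes it was -0.441 in N1, -0.351 in N2 and -0.559 in Mo-Mac cells. Apoe was at 1110 CPM in silk and 3700 CPM in sponge, a log2 ratio of -1.74 (-1.89 to -1.59), and -0.82 in Mo-Mac cells. The monocyte genes F13a1, a clotting factor subunit, and Plac8 had log2 ratios of -2.77 (-3.42 to -2.23) and -2.11 (-2.55 to -1.72). Of 10 fibroblast genes 4 were lower and none higher, with Col3a1 at 34.9 CPM in silk and 192 CPM in sponge N3 cells, and this was so for Col3a1 in N1 (-2.37), N2 (-2.29) and Mo-Mac cells (-2.25). Among 75 named genes called in silk over sponge, 14 fell under 2-fold without the 1 N3 cell that held most of the gene's UMIs, among them Ccl6, Cxcl3, Ccl3, Ccl22, Ccr7 and Fscn1.

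**Figure D5:**
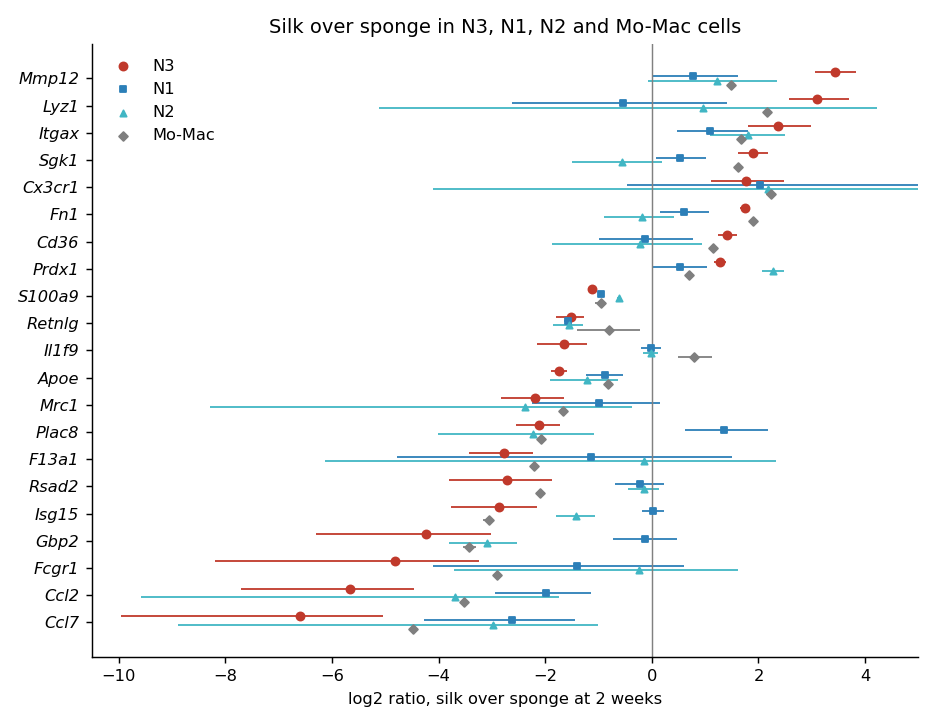
Log2 ratio of silk over sponge at 2 weeks for 21 named genes in N3, N1, N2 and Mo-Mac cells, with 0.5 counts added to each sum and lines as 95% intervals of counting error, some of which run past the axis. Genes at 0 UMIs in silk N3 cells, such as Ccl8, Ccl22 and Cxcl10, are not plotted. Among the genes shown, Ccl7 and Ccl2 lie lowest in N3 (-6.59 and -5.66) and Mmp12 highest (3.43).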

How the data were processed

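Droplet-based 3' libraries of 5 samples were used. The authors' deposited matrix holds unnormalized UMI counts (21617 genes, 41191 cells), and there is a table of cells with the library, the class, the subcluster and the mitochondrial percent of each cell as the authors deposited it. In 41191 of 41191 cells the counts summed to the deposited total. Cell Ranger 3.0.0, Seurat 3.0 and mm10 are named per the submitters' processing notes, with no roles, and no filters on cells are stated. Counts were summed per library and subcluster and scaled to CPM (numpy 2.4.6, scipy 1.17.1, pandas 2.3.3). Intervals are at 95%, exact (Clopper-Pearson), Newcombe or conditional binomial, and cover counting error only. Sums held 372665 UMIs of N3 cells in silk and 662150 in sponge at 2 weeks.

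The pair score was built for this work from simulated pairs (20 components, 30 neighbours, scikit-learn 1.9.0) and removed no cell outside an alternative. Barcodes were shared by libraries for 306 of 41191 cells and 1 of 177 N3 cells. Genes were named by a rule: the 12 highest and 12 lowest of a comparison, up to 4 members per list and direction, the 5 largest of opposite direction, and the markers. A gene that the rule named is not reported here, though it stays in the counts and medians. The members and the 28 lists were chosen with earlier results of these data known. The steps were tested on simulated data. The fit of N3 as a weighted sum of profiles, the count of random pairs, the genes outside the range of the other groups, the promoter search and the values without the N3 cell that held most UMIs of a gene were added after seeing the data. Other settings are in the closing part. No test was run, since each group had 1 library.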

Additional observations from a re-analysis of the deposited data

Results flagged for a closer look

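In 6 genes the silk over sponge log2 ratio at 2 weeks (10 CPM added) was at least 2-fold in N3 cells and at least 2-fold the opposite way in another group of the same 2 libraries. These differences were not tested, and all groups come from the same libraries. Plac8 had -2.05 in N3 and 1.14 in N1. Il1a, the cytokine interleukin-1 alpha, had -1.16 in N3 and 1.03 in N1, and fell under 2-fold without the N3 cell that held most of its UMIs. Inhba, the activin A subunit, had -1.60 in N3, 1.29 in N1 and 1.20 in N2. Smpdl3a had 1.5 in N3 and -1.18 in N1 and was named only after its values were seen. Igfbp6 had 2.09 in N3 and -1.21 in N2, with 46.3% of its silk UMIs in 1 N3 cell. Ppbp had -1.99 in N3 and 1.04 in Mo-Mac cells, with 56.4% of its sponge UMIs in 1 N3 cell.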

How the results depend on the processing

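Without the cells of highest pair score, the N3 share of neutrophils was 1.3% in silk at 2 weeks, 0.935% in sponge at 4 weeks and 1.16% in sponge at 2 weeks. The macrophage-defining share of N3 was then 0.71% in silk and 0.756% in sponge, and the median UMIs of N3 were 1.66 times those of N1 and 1.41 times those of N2 in silk, and 1.48 and 1.42 times in sponge. Too few N3 cells remained for a comparison by gene.

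For N3 against N1 and N2, 351 genes were higher and 255 lower with median-ratio scaling, and 66 and 31 after thinning. Without cells with a C1q UMI 240 were higher, with no filter 1567, with 50 CPM added 35 were lower, and with the mean over cells 32 were lower. For silk over sponge in N3, 40 were higher and 87 lower with 50 CPM added, 356 and 327 with no filter, 10 and 40 after thinning, and 40 and 77 without cells with a C1q UMI. Median-ratio scaling gave 62 higher. These changes come with fewer UMIs, fewer cells or another centre, and their causes were not tested.

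The macrophage-defining median of N3 over N1 was 1.67 in silk and 2.31 in sponge with median-ratio scaling, 1.82 and 1.8 without cells with a C1q UMI, and 2.39 in sponge with 50 CPM added. Over N2 it was 2.28 in silk and 2.28 in sponge with 50 CPM added, and in sponge 2.4 with median-ratio scaling and 1.52 without cells with a C1q UMI. Silk over sponge it was 0.0142 without those cells. The neutrophil core median with median-ratio scaling was -3.67 over N1 and -0.915 over N2 in silk, and -3.14 and -2.26 in sponge. The macrophage-defining share in sponge was 1.43% after thinning. Without cells with a C1q UMI, the list less its C1q genes took 0.552% in silk and 0.708% in sponge.

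Single genes turned round in silk over sponge. After thinning Matk had -1.36, Igfbp6 -1.21 and Timp1 -0.93, and without cells with a C1q UMI Lyz1 had -0.36, Olfm4 0.00 and Retnla 0.72. Of the other values of single genes under all settings, 717 kept their call and direction and 228 fell under the limits in the same direction. No paired analysis was possible because each group had 1 library. The 1 silk and 11 sponge N3 cells of 4 weeks limit what can be said of time, and 59 and 106 cells limit genes carried by few cells.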
